A study of Mus musculus with 6 samples.

Results

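The ubiquitin system attaches ubiquitin, a small protein tag, to other proteins and takes it off again. An activating enzyme (E1) passes ubiquitin to a conjugating enzyme (E2), and a ligase (E3) then brings the loaded E2 to its substrate. Most ligases carry a RING domain and bridge E2 and substrate, while HECT ligases carry ubiquitin on a cysteine of their own. Cullins are scaffolds that hold a RING subunit and exchangeable receptors for substrates (F-box proteins on cullin 1, BTB-Kelch proteins on cullin 3, DCAF proteins on cullin 4). Deubiquitinases remove the tag. In endothelial cells these enzymes are known to set how long receptors, junction proteins and transcription factors last.

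The genes described here were chosen by symbol from the first column of the deposited table: Usp, Trim, Rnf, March and Cul followed by a digit, Fbxl, Fbxo, Fbxw, Ube2, Ube3, Dcaf, Klhl, Herc and Otud, leaving out Trim25. The rule found 106 of the 4233 listed genes. GENCODE annotates 407 protein-coding mouse genes that fit it, and the table lists 105 of them. The other member, Fbxl12os, is an antisense gene. Usp6nl fits the rule by name but is known as a GTPase-activating protein for Rab proteins, and Fbxl16 and Trim44 also depart from what their symbols imply, as described where they appear. There were 8 E2 enzymes, 5 HECT ligases (Ube3, Herc), 22 Rnf, 16 Trim and 3 March genes with RING-type names, 6 cullins, 17 F-box, 6 Dcaf and 6 Klhl receptors, 15 Usp and 2 Otud genes. Trim63 and Klhl41, both known from muscle, had means under 10 normalised counts and were not tested, so 104 were.

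RNA was sequenced from lymphatic endothelial cells sorted by flow cytometry from the brain meninges of male mice aged 6 months on the C57BL/6J strain (CD31+ podoplanin+ singlets without DAPI or CD45 staining). The series holds 3 libraries from hemizygous 5xFAD mice and 3 from non-transgenic littermates (WT), each from the pooled cells of 10 mice. The 5xFAD transgenes carry familial Alzheimer disease mutations and are driven by the neuronal Thy1 promoter. RNA from the pools was linearly amplified. The comparison asks which of these genes differ between 5xFAD and WT lymphatic cells.

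The values are counts that the authors divided by 1 factor per library, here called normalised counts. The recovered reads of the listed genes summed to between 7960827 and 13255050 per library, which is not the full depth. Within each genotype no listed gene reached an SD of 2 in log2(reads + 1) (the highest was 1.99961 in 5xFAD and in WT), although 328 genes did over all 6 libraries. Genes whose replicates scatter more are not among the listed genes, and a gene at 0 throughout a group has no scatter at all. The variance used in the tests below was estimated from the listed genes alone. Adjusted p values may therefore be too small and the shares of called genes too large, and how far was not tested. Of the lymphatic markers Prox1, Flt4, Lyve1, Pdpn and Pecam1, all were present, with group means from 1401 in 5xFAD and 1406 in WT (Pdpn) up to Flt4, at 53353 ± 6270 in 5xFAD and 49027 ± 1894 in WT (SD, n = 3 each). Ptprc, which encodes CD45, was not among the listed genes. The summed levels of the marker lists below overlapped between the groups. The lymphatic list, with 12 of 13 genes listed, was at 264309 to 417626 in 5xFAD and 303403 to 342930 in WT. The blood endothelial list (6 of 13) was at 16438 to 23662 in 5xFAD and 13492 to 22677 in WT, and the fibroblast list (6 of 12) at 34490 to 36117 in 5xFAD and 31490 to 64800 in WT. The mural list (3 of 9) was at 2420 to 4410 in 5xFAD and 1939 to 6478 in WT. Mrc1, the 1 gene listed of the 11 in the leukocyte list, was at 8105 to 11310 in 5xFAD and 8243 to 11829 in WT. Alone it does not give the leukocyte content. Hbb-bt, the 1 erythroid gene listed of 8, was at 242 to 3526 in 5xFAD and 1362 to 2211 in WT. Their part in the results below was not tested. In bulk samples, fewer cells of a type and less RNA per cell cannot be told apart.

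Of the 104 members tested, 2 rose in 5xFAD, Fbxl16 and Rnf130, and 3 fell, Rnf5, Fbxo44 and Rnf24 (limma, Benjamini-Hochberg adjusted p under 0.05 over 4152 genes). That is 4.81% of the members, and of all tested genes 6.36% were called (1.88% higher, 4.48% lower). By limma the share of members called was thus no larger than that of all tested genes. Groups did not overlap for 21 members, or 20.2%, against 18.1% of all tested genes. They were 13 members higher in 5xFAD, where all genes gave 7.97%, and 8 lower, where all genes gave 10.1%. There were 17 members (16.3%) with an unadjusted p under 0.05, the same share as among all genes. The median log2 fold change was 0.16 over members and -0.02 over all tested genes, and 58 of the 104 members (55.8%) had a positive value, against 49.3% of all genes. When libraries were scaled to the same total, which moved the median of all genes to -0.14, the median of members was 0.04. On the recovered reads edgeR called 7 of 104 members (6.73%), 4 higher (3.85%) and 3 lower (2.88%), where it called 6.05% of all genes (1.93% higher, 4.12% lower). DESeq2 called 12 of 103 members (11.7%), 8 higher (7.77%) and 4 lower (3.88%), where it called 10.4% of all genes (3.96% higher, 6.41% lower). By both count tests the share of members called higher was above that of all genes and the share called lower was below it. These tests used the same 6 libraries as limma, by which 1.92% of members were called higher and 2.88% lower. The counts of members are small, and the differences in share were not tested. All 5 members called by limma had means under 1000 normalised counts, a level chosen after the values were seen. They were 8.62% of the 58 such members, where 10.1% of the 2304 tested genes under that level were called. None of the 46 members at 1000 or more was called, where 1.73% of the 1848 tested genes at that level were. The counts rest on few libraries: 1 member rose without 5xFAD 1, WT 1, WT 2 or WT 3, and 5 fell without 5xFAD 2, Cul5 and Rnf167 being the added ones.

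**Figure D1:**
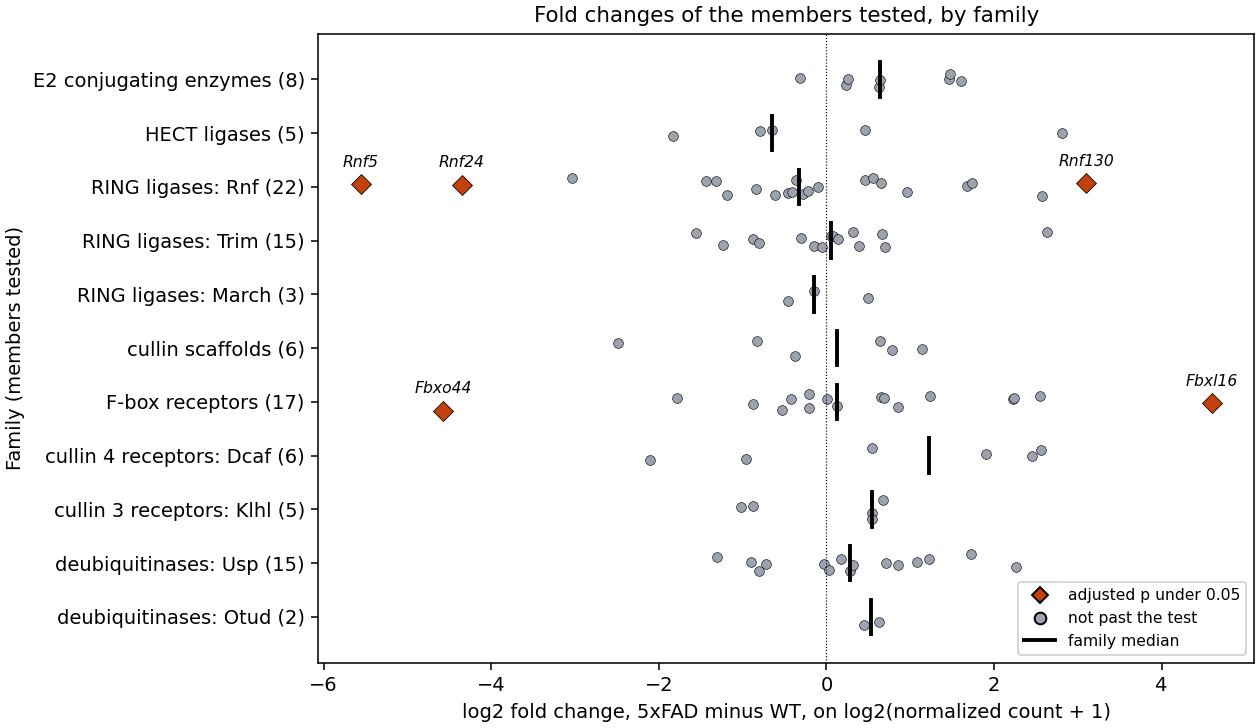
The horizontal axis gives the log2 fold change of each tested member, 5xFAD minus WT, on log2(normalised count + 1), and the rows are families with the number tested. Diamonds are the 5 members past the test and black bars are family medians, which lie between -0.66 (HECT ligases) and 1.22 (Dcaf receptors). Without WT 3 these medians were -0.02 and 0.53.

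The start regions of the called genes are shown to set the higher and the lower genes side by side. RefSeq (GRCm38.p6) held 106 start regions for 83 of the members, each of 300 bases (250 before and 50 after a start), and among the called genes these cover Fbxl16, Rnf130, Fbxo44 and Rnf24. Capitals mark the GC box GGGCGG and the CCAAT box CCAAT on either strand. The regions are chr17:25808211-25808510 (plus strand) for Fbxl16, whose RefSeq start lies upstream of the GENCODE gene, chr11:50025081-50025380 (plus) for Rnf130, chr4:148160045-148160344 (minus) for Fbxo44, of 3 starts the most upstream, and chr2:131352843-131353142 (minus) for Rnf24.
Fbxl16: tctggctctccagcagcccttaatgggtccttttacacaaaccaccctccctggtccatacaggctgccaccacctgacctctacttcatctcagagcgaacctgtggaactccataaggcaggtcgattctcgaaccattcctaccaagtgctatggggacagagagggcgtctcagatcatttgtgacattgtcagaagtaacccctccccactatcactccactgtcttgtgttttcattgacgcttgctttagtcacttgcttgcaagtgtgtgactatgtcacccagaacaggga
Rnf130: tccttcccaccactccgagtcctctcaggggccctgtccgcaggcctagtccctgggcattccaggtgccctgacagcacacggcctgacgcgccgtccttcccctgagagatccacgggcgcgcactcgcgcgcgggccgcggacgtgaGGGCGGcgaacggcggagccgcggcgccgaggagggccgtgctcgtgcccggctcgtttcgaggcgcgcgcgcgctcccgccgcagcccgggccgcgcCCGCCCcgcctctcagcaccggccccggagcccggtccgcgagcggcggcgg
Fbxo44: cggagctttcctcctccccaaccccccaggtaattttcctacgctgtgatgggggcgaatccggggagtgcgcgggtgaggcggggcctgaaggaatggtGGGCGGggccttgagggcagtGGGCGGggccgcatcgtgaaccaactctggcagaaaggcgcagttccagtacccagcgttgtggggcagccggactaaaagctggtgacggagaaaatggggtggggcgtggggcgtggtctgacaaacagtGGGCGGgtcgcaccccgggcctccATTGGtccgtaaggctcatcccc
Rnf24: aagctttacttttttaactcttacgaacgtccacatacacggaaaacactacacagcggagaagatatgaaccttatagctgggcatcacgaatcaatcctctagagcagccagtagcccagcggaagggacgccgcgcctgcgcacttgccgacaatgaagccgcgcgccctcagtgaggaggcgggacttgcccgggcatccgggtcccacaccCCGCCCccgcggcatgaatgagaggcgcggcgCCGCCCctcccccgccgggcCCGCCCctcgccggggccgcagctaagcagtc
The GC box occurred 2 times in the region of Rnf130, 3 times in that of Fbxo44, 3 times in that of Rnf24 and 0 times in that of Fbxl16, and the CCAAT box 1 time in that of Fbxo44. The GC content was 50.7% for Fbxl16, 78.0% for Rnf130, 65.3% for Fbxo44 and 63.7% for Rnf24. The GC box was present in 66.0% of the members' regions and in 35.7% of all 32851 regions in the RefSeq table. The CCAAT box was present in 27.4% of the members' regions and 37.4% of all. All regions include those of genes not listed here, and no set matched to the listed genes was compared.

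Among the E2 enzymes, which carry ubiquitin or a related tag, 0 of 8 passed and 7 of 8 had a positive log2 fold change (median 0.63). With single libraries left out, 5 to 8 of 8 were positive and the median was between 0.60 (without 5xFAD 3) and 1.10 (without 5xFAD 2), with 1.04 without WT 1 and 0.98 without 5xFAD 1. Ube2b, an E2 known for DNA damage signalling and histone ubiquitination, was the 1 member of the family with separate groups. It was at 2555, 1448 and 699 normalised counts in 5xFAD against 644, 579 and 326 in WT (log2 fold change 1.47, 95% interval -0.42 to 3.35; limma adjusted p = 0.485). Ube2z, an E2 that also loads the tag FAT10, was at 648, 2166 and 825 in 5xFAD and at 1185, 251 and 180 in WT, with overlap.

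Of the HECT ligases, 0 of 5 passed. Herc6, known in mice as the main ligase for the interferon-induced tag ISG15, came nearest. It was at 1501, 401 and 4486 in the 5xFAD libraries, against 290, 281 and 93.8 in the WT libraries. All 3 5xFAD values lay above the WT values, with 5xFAD 2 close to the WT range (log2 fold change 2.82, SE 1.00; limma adjusted p = 0.0701). It was called higher by edgeR (log2 fold change 3.20, edgeR adjusted p = 0.0355), by DESeq2 (DESeq2 adjusted p = 0.00405) and by limma without 5xFAD 2 (3.71, limma adjusted p = 0.019). It was smaller without 5xFAD 3 (1.97, limma adjusted p = 0.439) or WT 3 (2.28, limma adjusted p = 0.294). Of its transcript 31-mers, 13.8% also occur in transcripts of other genes, mostly Gm45193 on the same strand, so its reads may be shared. In the innate immune subgroup, which holds Herc6, 0 of 14 passed, and 8 had a positive and 6 a negative log2 fold change (median 0.10). Herc1, a giant HECT protein, was at 12825, 3772 and 10404 in 5xFAD and at 6409, 5294 and 5696 in WT. The WT libraries were close together and lay inside the 5xFAD range (log2 fold change 0.46, interval -0.73 to 1.65). Ube3b was lower in every 5xFAD library, at 91.2, 241 and 149, against 325, 369 and 1249 in WT, without passing (log2 fold change -1.83; limma adjusted p = 0.388).

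The RING genes named Rnf held 3 of the 5 calls, with 1 higher and 2 lower of 22, where 6.36% of all tested genes were called. Rnf5, a ligase anchored in the endoplasmic reticulum membrane and known for the degradation of misfolded proteins, had no reads in any 5xFAD library. In WT it was at 40.3, 140 and 16.8, from 219 reads (GRCm38, chromosome 17, 34601091 to 34603690, minus strand). With a floor of 3 reads over the 5xFAD group it was at least 59.3-fold lower in 5xFAD (limma adjusted p = 5.16e-06). The bound was 26.9 without WT 2, and 33.6 without 5xFAD 1, where fewer libraries stand behind the floor. Rnf5 was the 1 member among 54 listed genes without reads in any 5xFAD library, of which 50 were called lower. The 5xFAD libraries lacked reads for 86 to 147 listed genes each and the WT libraries for 25 to 42, and the part of this in the Rnf5 result was not tested. Of its 31-mers, 37.0% occur in other genes, with 20.2% in Gm20463 on the opposite strand, and use of strand in the counting is not stated, so its level is uncertain. The other members known for degradation at the endoplasmic reticulum did not pass. Ube2j1, an E2 of that membrane, was at 367, 1842 and 3623 in 5xFAD and 951, 921 and 741 in WT. Rnf145 was at 1204, 2796 and 2565 in 5xFAD and 1134, 1983 and 990 in WT. Rnf122 was at 29.0, 51.1 and 43.8 in 5xFAD and 18.9, 88.3 and 11.5 in WT. The groups overlapped for all 3.

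Rnf24, a membrane RING protein, fell. It was at 4.98, 2.43 and 53.1 in 5xFAD, against 506, 260 and 69.9 in WT (GRCm38, chromosome 2, 131298064 to 131352892, minus strand). The highest 5xFAD library lay just under the lowest WT library (log2 fold change -4.35, SE 1.07; limma adjusted p = 0.00142). The value was -3.55 without 5xFAD 2, -5.54 without 5xFAD 3, -3.72 without WT 1 and -5.14 without WT 3, with the call kept in each. Of its 31-mers, 16.1% occur in Pank2, which overlaps it on the opposite strand. Rnf130, known as Goliath, a membrane-spanning ligase of endosomes, rose. It was at 1281, 1227 and 187 in 5xFAD, against 60.0, 110 and 69.0 in WT (GRCm38, chromosome 11, 50025346 to 50104758, plus strand), and none of its 31-mers occurs in another gene. The groups were apart, with 5xFAD 3 far below the other 5xFAD libraries (log2 fold change 3.10, SE 1.05; limma adjusted p = 0.0496). The call was lost when 5xFAD 1, 5xFAD 2, WT 1, WT 2 or WT 3 was left out (limma adjusted p from 0.091 to 0.237), and without 5xFAD 3 the value was 4.01.

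Other Rnf genes had separate groups without passing. With the called ones, 3 of the 22 Rnf genes were apart and higher in 5xFAD, and 5 were apart and lower. Over all tested genes the shares apart were 7.97% higher and 10.1% lower. Rnf167, which is known as an endosomal and lysosomal ligase of the same membrane-spanning type as Rnf130, had the opposite direction. It was at 59.7, 277 and 75.6 in 5xFAD, against 2168, 876 and 372 in WT (log2 fold change -3.03; limma adjusted p = 0.0528). It was called lower by DESeq2 (DESeq2 adjusted p = 0.00685), with libraries scaled to the same total (limma adjusted p = 0.042), with the replicate block (limma adjusted p = 0.0471), and by limma without 5xFAD 2 (-3.71) or WT 3 (-3.66). It was not called by edgeR (edgeR adjusted p = 0.0614), nor by limma without WT 1 (-2.39, limma adjusted p = 0.341), 5xFAD 1 (-2.61, limma adjusted p = 0.209) or 5xFAD 3 (-2.78, limma adjusted p = 0.177). Rnf10, known in human cells to ubiquitinate ribosomal proteins, was at 1534, 1070 and 4847 in 5xFAD, against 906, 316 and 132 in WT (log2 fold change 2.57; limma adjusted p = 0.09). Rnf169 was also higher in every 5xFAD library, at 1055, 1580 and 2391, against 246, 422 and 1030 in WT (log2 fold change 1.74). Rnf14 and Rnf19a, ligases of the RING-between-RING type, were lower in every 5xFAD library. Rnf144a and Rnf144b, of the same type, had overlapping groups (log2 fold change 1.68 and -0.28). Rnf14 was at 647, 1478 and 464 in 5xFAD and 1490, 1678 and 3518 in WT, and Rnf19a at 222, 260 and 101 in 5xFAD and 330, 331 and 312 in WT. Both were far from the threshold (limma adjusted p = 0.464 and 0.788). Rnf213, a giant ligase with an ATPase core whose human gene is linked to moyamoya vessel disease, had the highest mean of all members. It was at 7830, 6068 and 10372 in 5xFAD and at 11241, 9179 and 7585 in WT, with overlap (log2 fold change -0.22, interval -1.33 to 0.88).

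None of the 15 Trim genes tested and none of the 3 March genes passed by limma (1 and 0 with an unadjusted p under 0.05; by edgeR and by DESeq2 Trim35 was the 1 called). Trim24, a chromatin reader and ligase, was at 3370, 689 and 483 in 5xFAD and at 961, 5154 and 5793 in WT, where 1 library of each group went against the others (log2 fold change -1.56; limma adjusted p = 0.361). Trim35, named after its values were seen, was at 430, 693 and 5839 in 5xFAD and at 602, 79.0 and 150 in WT, so 1 library held most of the 5xFAD level. March7, a membrane-linked RING protein, was at 1483, 5363 and 3144 in 5xFAD and 2126, 1664 and 2541 in WT, with overlap. Trim56, a ligase of antiviral signalling, was at 2322, 3317 and 2867 in 5xFAD and 2276, 2805 and 2605 in WT (log2 fold change 0.14, interval -1.40 to 1.68). Trim44, which lacks a RING domain, was at 4835, 1677 and 1853 in 5xFAD and 2458, 3855 and 1771 in WT. The levels of Trim34a, Trim43b, Trim5, Trim12c and Usp17la are uncertain, because 38.9% to 68.5% of their 31-mers also occur in near copies or other genes.

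**Figure D2:**
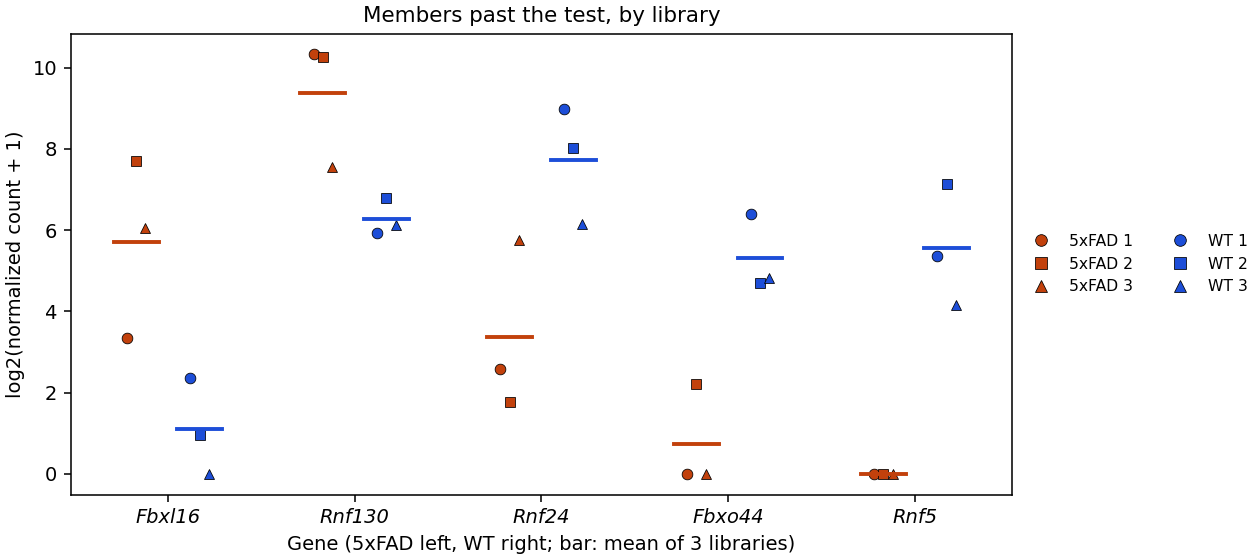
The vertical axis is log2(normalised count + 1) for the 5 members past the test, with one point per library and a bar at the mean of 3 libraries, 5xFAD left and WT right. Fbxl16 and Rnf130 lie higher in 5xFAD, while Rnf24, Fbxo44 and Rnf5 lie lower, with all Rnf5 values in 5xFAD at 0.

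None of the 6 cullin scaffolds passed (1 had an unadjusted p under 0.05). Cul3, which works with BTB receptors, was at 1430, 3325 and 18494 in 5xFAD and at 2868, 3196 and 2534 in WT. The WT libraries were close together and 5xFAD 3 stood far above the other 5 (log2 fold change 0.64; limma adjusted p = 0.767), and without that library the sign turned (-0.39). Cul5, which works with SOCS-box receptors, was at 193, 1176 and 98.2 in 5xFAD and 1031, 1656 and 2348 in WT. The groups met only at 5xFAD 2, which lay above the lowest WT library (log2 fold change -2.49, SE 0.98; limma adjusted p = 0.118). Without 5xFAD 2 it was called lower (-3.52, limma adjusted p = 0.0278), while without 5xFAD 3 it was at -1.73 (limma adjusted p = 0.444), and edgeR gave -1.81 (edgeR adjusted p = 0.355). Cul4a was at 1099, 3185 and 2270 in 5xFAD and 3027, 3017 and 4912 in WT (log2 fold change -0.83).

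Substrate receptors held the other 2 calls, both F-box genes with few reads. Fbxl16, an F-box protein with leucine-rich repeats that is known in human cells to act apart from cullin 1, rose. It was at 9.12, 208 and 65.0 in 5xFAD, against 4.11, 0.93 and 0 in WT, from 231 reads in 5xFAD and 6 in WT (GRCm38, chromosome 17, 25809085 to 25821255, plus strand). The groups were apart, with 5xFAD 1 close to the highest WT library (log2 fold change 4.60, SE 1.04; limma adjusted p = 0.000399). The 5xFAD over WT ratio was 47.4 (counting interval 21.4 to 130). The log2 fold change was 5.78 without 5xFAD 1 (ratio 79.6), 3.59 without 5xFAD 2 (ratio 17.5, counting interval 7.57 to 49.5) and 5.22 without WT 1, where 1 WT read was left (ratio 183, counting interval 32.6 to 7266). Fbxo44, an F-box protein of a family whose best-known members bind glycoproteins, fell. It was at 0, 3.65 and 0 in 5xFAD, against 83.8, 25.1 and 27.4 in WT, from 3 reads in 5xFAD and 160 in WT (GRCm38, chromosome 4, 148152800 to 148160482, minus strand). The WT over 5xFAD ratio was 43.3 (counting interval 14.6 to 212), and the groups were apart (log2 fold change -4.58, SE 1.04; limma adjusted p = 0.000387). The ratio was 24.6 without 5xFAD 1 and 24.4 without WT 1. Without 5xFAD 2 no 5xFAD read was left, and Fbxo44 was at least 30.5-fold lower (log2 fold change -5.31). Counting intervals and bounds cover counting error only.

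Fbxo43, known as an inhibitor of the anaphase-promoting complex in oocytes, was low, at 64.7, 124 and 50.4 in 5xFAD against 2.47, 16.7 and 33.6 in WT (log2 fold change 2.54; limma adjusted p = 0.154). In the Dcaf receptors of cullin 4, 0 of 6 passed by limma, 4 had a positive log2 fold change (median 1.22) and 3 had separate groups, where 18.1% of all tested genes did. The median was 0.53 without WT 3 and 1.71 without WT 1. Dcaf5 was at 3091, 2002 and 2570 in 5xFAD, against 490, 622 and 319 in WT. Replicates were close in both groups, with a wide gap between groups (log2 fold change 2.45, SE 0.93; limma adjusted p = 0.0977). Dcaf17 was at 2907, 1075 and 3339 in 5xFAD, against 316, 403 and 395 in WT (log2 fold change 2.56, SE 0.95; limma adjusted p = 0.0886). Both were called higher by DESeq2 (DESeq2 adjusted p = 0.00438 for Dcaf5 and 0.00224 for Dcaf17) and not by edgeR. Limma's prior here gave a gene's own replicate spread no weight, so the SE of each gene is that of genes at a similar level. It leaves out the close replicates of Dcaf5, with SDs of log2(normalised count + 1) of 0.31 in 5xFAD and 0.49 in WT. It equally leaves out the wide spread of the called members Fbxl16 (2.20 in 5xFAD and 1.18 in WT) and Rnf24 (2.10 and 1.44). Dcaf7 was at 775, 495 and 402 in 5xFAD against 235, 349 and 34.5 in WT, while Dcaf10 ran the other way, at 37.3, 177 and 42.5 in 5xFAD and 772, 166 and 182 in WT. Among the 5 Klhl genes tested, none passed. Klhl4, the highest of them, was at 658, 695 and 835 in 5xFAD and at 391, 2943 and 2801 in WT.

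**Figure D3:**
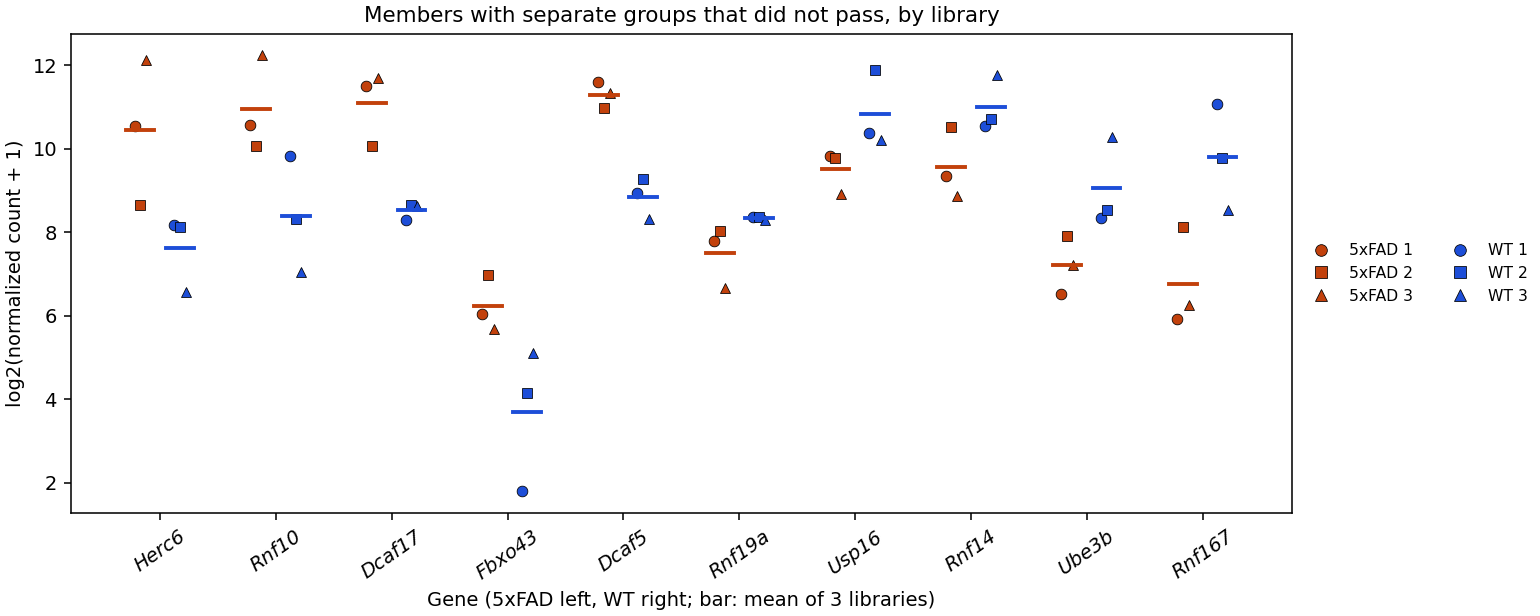
The vertical axis is log2(normalised count + 1) for 10 members whose groups did not overlap and which did not pass the test, those with the 5 largest changes in each direction, with one point per library and a bar at the mean of 3, 5xFAD left and WT right. Herc6, Rnf10, Dcaf17, Fbxo43 and Dcaf5 lie higher in 5xFAD, and Rnf19a, Usp16, Rnf14, Ube3b and Rnf167 lie lower.

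None of the 15 Usp genes and neither of the Otud genes passed by limma (1 and 0 with an unadjusted p under 0.05), and 10 of the Usp genes had a positive log2 fold change (median 0.28). Without 5xFAD 3 the positive ones were 5 and the median was -0.17, and without 5xFAD 1 the median was 0.77. Usp11, named after its values were seen and the 1 Usp gene called by DESeq2 (DESeq2 adjusted p = 0.0308), was at 4284, 2207 and 4896 in 5xFAD, against 372, 1276 and 878 in WT. The groups were apart (log2 fold change 2.26, SE 0.87; limma adjusted p = 0.104). Usp7, known as the deubiquitinase that stabilises Mdm2 and p53, was at 5984, 4097 and 3541 in 5xFAD, against 3038, 1126 and 2688 in WT, also apart (log2 fold change 1.08, interval -0.41 to 2.57). Usp16, which removes ubiquitin from histone H2A, was lower in every 5xFAD library, at 915, 884 and 486, against 1336, 3785 and 1188 in WT (log2 fold change -1.31; limma adjusted p = 0.531). Usp9x, an X-linked deubiquitinase of many substrates, was at 3593, 9411 and 8614 in 5xFAD and at 4710, 2681 and 3898 in WT (log2 fold change 0.86, interval -0.46 to 2.17). Usp34, known for acting on axin in Wnt signalling, was at 3101, 7777 and 13583 in 5xFAD and at 6062, 5794 and 4780 in WT, and its sign turned without 5xFAD 3 (0.32 with all libraries, -0.17 without it). Usp24 was at 7257, 3855 and 6022 in 5xFAD and 6659, 4356 and 5500 in WT (log2 fold change 0.03, interval -1.25 to 1.30). Otud4 was at 3083, 1405 and 381 in 5xFAD and at 473, 3816 and 364 in WT, with full overlap, and its sign turned without 5xFAD 1 (-0.25) or WT 3 (-0.19).

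**Figure D4:**
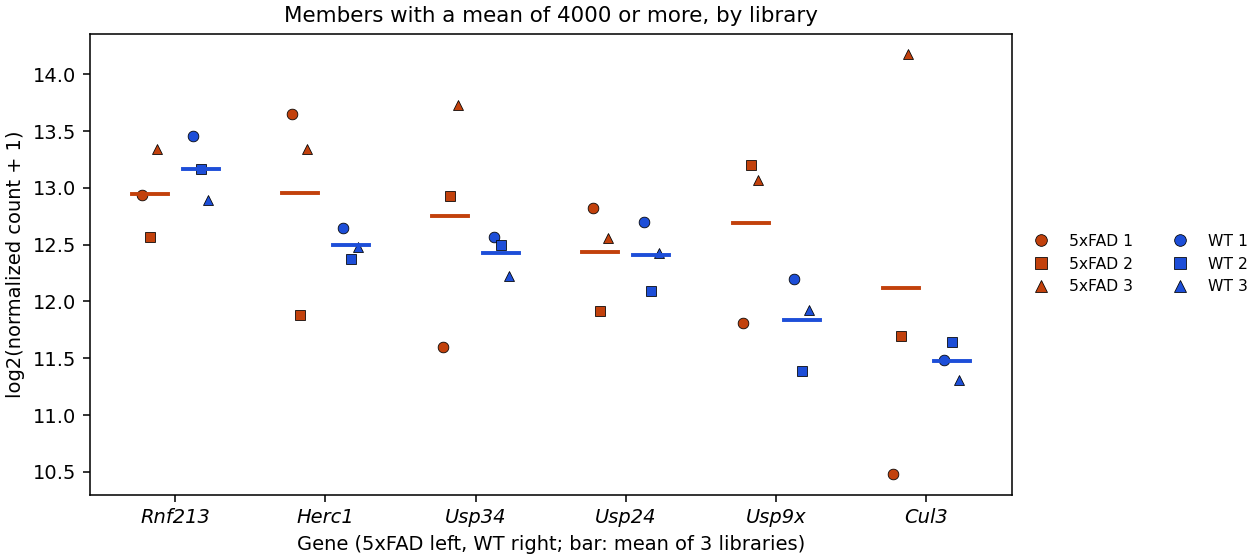
The vertical axis is log2(normalised count + 1) for the 6 members with a mean of 4000 or more, with one point per library and a bar at the mean of 3, 5xFAD left and WT right. The groups overlap for each of the 6, and 5xFAD 3 stands far above the other libraries for Cul3, at 18494 normalised counts.

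Replicates of most members differed widely. The highest library was 3.75 times the lowest within 5xFAD in the median of 104 members with reads in all 3, and 4.06 times within WT in the median of 105. It was over 10 times the lowest for 18 members in 5xFAD and 12 in WT. The median SD of log2 values within a group was 0.40 for the 6 members with a mean of 4000 or more, 0.86 for the 46 with at least 1000 and 1.18 for the 58 below that, against 0.60, 0.85 and 1.11 for all tested genes at those levels. The members made up 1.16, 1.37 and 1.62% of recovered reads in the 5xFAD libraries and 1.26, 1.27 and 1.20% in the WT libraries. Without Cul3 the shares were 1.15, 1.33 and 1.45% in 5xFAD and 1.23, 1.24 and 1.17% in WT, so 5xFAD 3 stayed highest. Of the 106 members, 26 had their highest value in 5xFAD 3 and 14 to 20 in each of the other libraries. Per kilobase of exon, Cul3 had the highest mean level over all 6 libraries, at 1590 normalised counts per kb in 5xFAD and 588 in WT. Most of its 5xFAD level came from 5xFAD 3, and within WT alone it was not the highest member per kilobase.

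Outside the rule, 90 further genes of the ubiquitin system were listed and tested. Over all tested genes limma called 6.36% (1.88% higher, 4.48% lower), and of these 90 genes 0 rose and 3 fell. The 2 described here both belong to the cullin-RING partners, of which 20 were tested. Socs5, a SOCS-box receptor that works with cullin 5, was at 152, 37.7 and 43.8 in 5xFAD, against 514, 2143 and 461 in WT (log2 fold change -3.64; limma adjusted p = 0.0114). The value was -4.26 without 5xFAD 1 and -2.93 without WT 2, and the call was lost without WT 2, 5xFAD 2 or 5xFAD 3. Wdr5, a WD-repeat protein of histone methyltransferase complexes, was at 24.9, 45.0 and 5.31 in 5xFAD, against 245, 413 and 68.1 in WT (log2 fold change -3.29; limma adjusted p = 0.0357). It was at -3.91 without 5xFAD 2, -2.47 without 5xFAD 3 and -4.03 without WT 3, and its call was lost without 5xFAD 1, 5xFAD 3, WT 1 or WT 2. None passed among 6 genes for ubiquitin and related tags, all 6 with a negative log2 fold change (median -0.75, from -1.64 to -0.39; 1 turned positive without WT 3). Of 6 subunits of the anaphase-promoting complex, 0 passed and 5 had a negative log2 fold change (median -0.97). Their median was -1.94 without 5xFAD 2 and -0.50 without 5xFAD 3. Groups were apart and lower in 5xFAD for 2 of the 6, and for 10.1% of all tested genes. None passed among 30 other ligases, 7 other deubiquitinases or 18 factors of the p97 and shuttle group.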

How the data were processed

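Per the labels, total RNA (Arcturus PicoPure) went through linear amplification. Per the submitters' processing notes, FastQC, Trimmomatic, Salmon and DESeq2 were used, with the build mm10; their settings are not given in the sources used here. What the authors deposited is a signal: counts per gene after division by a library factor. Every value (100%, within 1e-06) was a whole multiple of 1 value per column, so whole numbers were recovered, here called reads. As Salmon was used, they may be rounded estimates and not counted reads, which the counting intervals do not cover. By edgeR 251 genes were called on these numbers.

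Genes with a mean of at least 10 were tested (4152 of 4233) on log2(value + 1) with limma 3.58.1 in R 4.3.3, two-sided, the prior variance following level (prior degrees of freedom infinite), with Benjamini-Hochberg adjustment. Fold changes on this scale understate the change of low genes. Each library is 1 pool of 10 mice. Alternatives used edgeR 4.0.16, DESeq2 1.42.0, other scalings, filters and left-out libraries. Positions, exon lengths and 31-mers shared between transcripts (both strands) came from GENCODE M21 (GRCm38, the assembly of mm10).

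The members and lists were chosen with earlier results of these data known. Named members were all called ones, the highest mean per family, the 5 largest uncalled changes per direction with separate groups, and Cul3, Cul5, Rnf213 and Usp9x always; some genes that this rule or the marker lists would name are not reported here, though they stay in every count. Ube2b, Ube2z, Ube2j1, Rnf122, Rnf145, Trim35, Trim44, Trim56, Cul4a, Dcaf7, Dcaf10, Usp7, Usp11 and Usp24, and the members whose reads may be shared, were named after their values were seen. So were Rnf144a, Rnf144b and Rnf169.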

Additional observations from a re-analysis of the deposited data

How the results depend on the processing

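Of the 5 called members, Fbxl16, Fbxo44, Rnf24 and Rnf5 kept their call in every alternative that tested them. The minimum mean of 50 did not test Fbxl16, Fbxo44 or Rnf5, whose means over all 6 libraries were 47.8, 23.3 and 32.9. Their means in the lower group were 1.68, 1.22 and 0, so each passed the minimum mean of 10 only through the other group. Rnf5 was also not tested where reads in both groups were required. Rnf130 lost its call in 9 of 20 alternatives (adjusted p from 0.000479 by DESeq2 to 0.237 by limma). The 2 members higher became 1 with log2(value + 8), with the same total per library and with only genes that have reads in both groups, 0 at a minimum mean of 50 (which tests fewer genes), 4 by edgeR, 8 by DESeq2 and 6 when the adjusted p had to be under 0.1; the 3 lower became 1 with a mean of at least 50. The cause was not tested for the others. Single libraries left out gave 1 to 2 members higher, 3 to 5 lower, 56 to 84 genes higher, 145 to 192 lower, 1 to 3 other pathway genes and a median log2 fold change of members of 0.03 to 0.27. Of all genes, 78 higher became 49 with a mean of at least 50, 120 with quantile normalization, 163 by DESeq2 and 134 at an adjusted p under 0.1, and 186 lower became 116 with a mean of at least 50. The 3 other pathway genes became 7 by DESeq2. Libraries with the same replicate number showed no shared deviation from their group means (correlations 0.00247, -0.0157 and -0.0126), so the numbers give no pairing. With the replicate block 2 members were higher and 4 lower (Rnf167 added), with 80 and 190 of all genes. The sign turned with at least 1 library left out for 40 of the 104 members tested, none of the 5 called ones among them. They include Cul3 (-0.39 to 1.46), Usp34 (-0.17 to 0.90), Otud4 (-0.25 to 1.51), Usp24 (-0.17 to 0.29), Trim44 (-0.54 to 0.24), Ube2j1 (-0.07 to 1.58) and Rnf122 (-0.03 to 1.39). Genes with few reads, such as Fbxl16, Fbxo44 and Rnf5, are limited by counting.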
